A study of Rattus norvegicus with 6 samples.

Results

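Transcripts of 37 DNA repair genes, grouped by repair route, were followed in rat renal cortex. The treated group was 3 rats dosed for 4 weeks with o-anisidine hydrochloride (700 mg/kg/day), and the control group was 3 rats that received water over the same weeks. All were male, of the Sprague-Dawley strain, purchased at 5 weeks old and fed a basal diet. One single-colour (Cy3) Agilent array was hybridised with total RNA of each animal. The 37 genes were chosen by name as parts of the main repair routes. The choice rule used no array value, but earlier results of these data were known. A probe was matched to 31 of the 37 through its RefSeq accession, and 30 of these were among the 31087 genes tested. No probe was matched for Lig3, Msh6, Ercc5, Fanci, Blm or Atr, which were not analysed here. The only Brca1 probe was not well above background on any array. No probe set against another probe gives a ratio of RNA amounts, so levels are compared here only within a gene.

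Cells keep their DNA intact through several routes. In base excision repair a glycosylase cuts out a single damaged base, and an endonuclease, a polymerase and a ligase close the gap. Nucleotide excision repair removes bulky adducts with a stretch of the strand around them, mismatch repair corrects copying errors, and double-strand breaks and crosslinks are mended by recombination or by joining of the ends. o-Anisidine is an aromatic amine, a class of compounds whose metabolites can bind to DNA bases, and many recombination genes are transcribed mainly in cells that are copying their DNA.

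No repair gene passed the threshold in either direction. Of the 30 tested members, 0 had an adjusted p under 0.05 (limma with Benjamini-Hochberg adjustment over all genes), against 0.0611% of all genes (0.0354% higher and 0.0257% lower). At an unadjusted p under 0.05 there were 3 members, 2 of them higher after o-anisidine (Ercc1 and Chek2) and 1 lower (Ung), which is 10% of the members against 11.5% of all genes (6.36% higher and 5.14% lower). The fitted log2 changes, o-anisidine over control, ran from -0.36 for Ung to 0.37 for Fancd2, 15 above 0 and 15 below, with a median of -0.00066 against 0.0037 over all genes. On its brightest kept probe, every tested member had a 95% interval within a 2-fold change in both directions. For 25 of the 30 it also lay within 1.5-fold, the exceptions being Ung, Mutyh, Rad54l, Fancd2 and Chek1. These intervals come from 3 arrays a group, which limits their precision, and they speak of RNA only. They make no allowance for slide. Other kept probes of a gene are outside this count, such as a dimmer Mutyh probe at -0.53 (SE 0.25).

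All 3 o-anisidine arrays lay above all 3 control arrays for 4 members (Pms2, Ercc1, Chek2 and Xrcc6) and below them for 3 (Ung, Nthl1 and Nbn). That is 23.3% of the tested members, against 18.4% of all genes (9.55% higher and 8.88% lower). The share is near that background, so the count is not read as a result about repair genes. The 7 genes are described below within their routes.

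**Figure D1:**
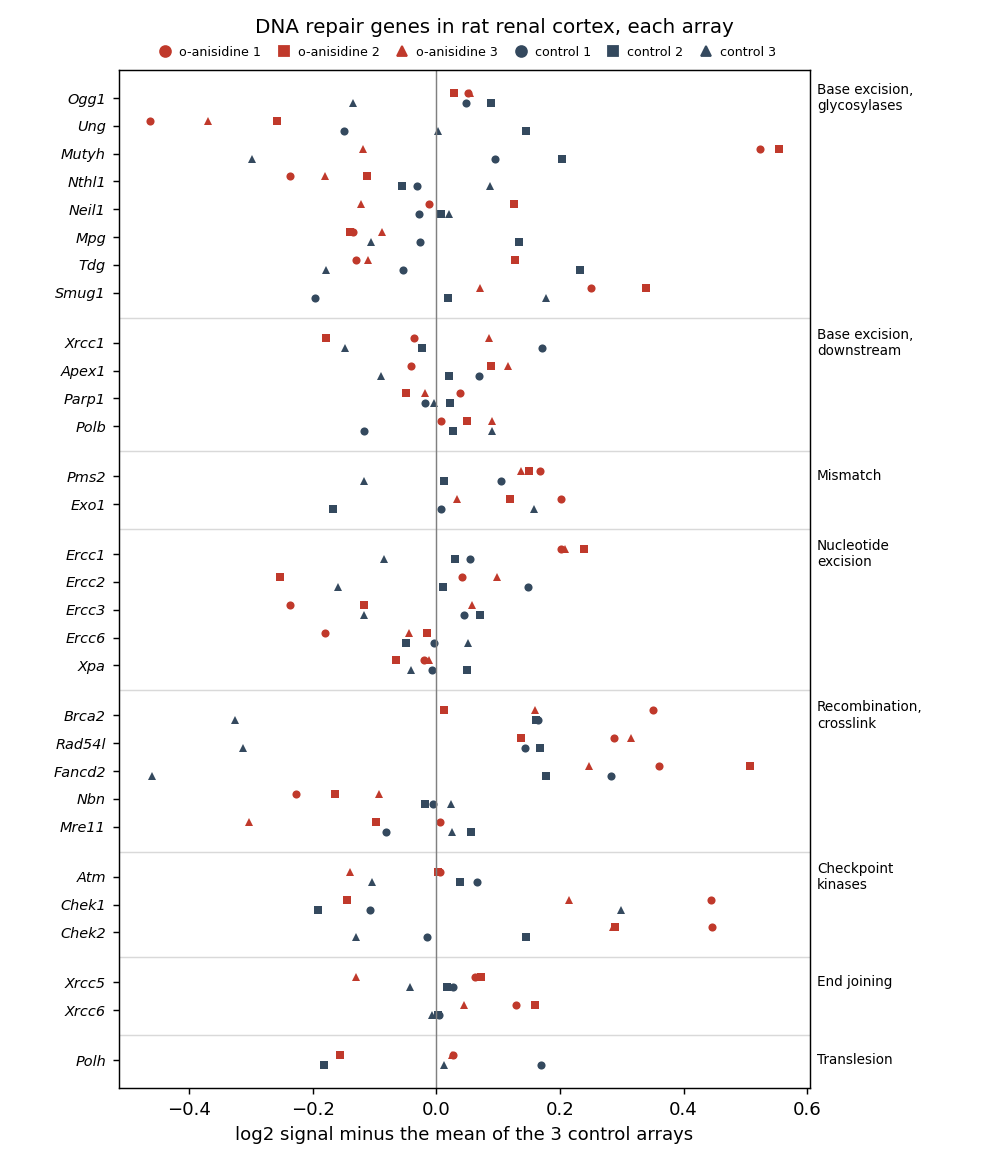
Each tested DNA repair gene on each array, as log2 signal minus the mean of the 3 control arrays of that gene (x axis), with o-anisidine arrays in red above control arrays in dark blue, and genes grouped by repair route. Red and blue points overlap in 23 of the 30 genes, and Ung, at -0.36, has the lowest group difference.

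**Figure D2:**
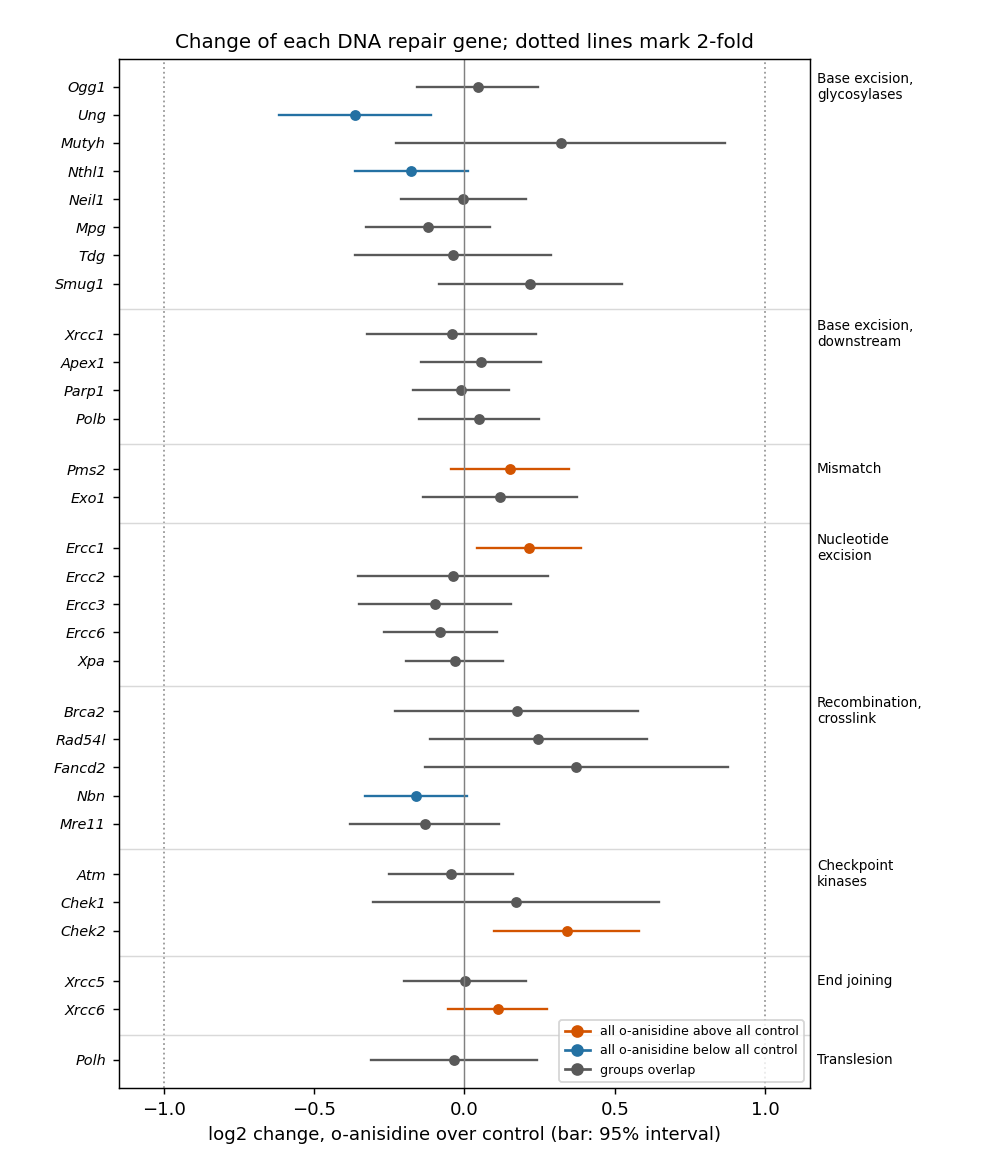
Fitted log2 change of each tested DNA repair gene, o-anisidine over control (points), with its 95% interval (bars) and dotted lines at 2-fold. No bar reaches a dotted line, and the colours mark the 4 genes whose o-anisidine arrays all lay above the control arrays and the 3 whose o-anisidine arrays all lay below.

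All 8 DNA glycosylases were measured, and their median log2 change was -0.02. Ung removes uracil from DNA. Its log2 signal, meaning log2 of the processed signal over the array's 75th percentile, was 0.43, 0.64 and 0.52 on o-anisidine arrays 1 to 3, against 0.74, 1.04 and 0.90 on control arrays 1 to 3. Each treated animal was thus under every control animal. The log2 change of -0.36 (SE 0.10) is 0.777-fold, with a 95% interval of 0.652 to 0.926, and the adjusted p of 0.301 was the smallest among the members but far from the threshold. The control arrays shared 1 slide with o-anisidine 3 only, and within that slide, where the treated group is that single array, Ung had a change of -0.37. Its promoter window is shown because it is the member with the smallest p, with capitals marking the letters searched, described further below.
Ung promoter, GRCr8 chr12:48153996-48154295, minus strand: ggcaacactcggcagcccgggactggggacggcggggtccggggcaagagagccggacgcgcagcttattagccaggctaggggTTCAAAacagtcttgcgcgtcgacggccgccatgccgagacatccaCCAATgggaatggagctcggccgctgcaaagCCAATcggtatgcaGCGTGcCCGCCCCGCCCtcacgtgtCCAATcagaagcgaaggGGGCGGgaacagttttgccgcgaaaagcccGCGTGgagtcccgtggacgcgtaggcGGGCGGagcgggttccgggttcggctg

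Nthl1, which excises oxidised pyrimidines, had log2 signals of -1.02, -0.89 and -0.96 on the o-anisidine arrays, against -0.81, -0.83 and -0.69 on the control arrays. The groups did not overlap, but their nearest arrays were close, and the log2 change of -0.18 (SE 0.08, adjusted p = 0.449) was small. Its window holds the letters TTTCGCGC, an E2F-like match found in 0.342% of all windows and in no other member.
Nthl1 promoter, GRCr8 chr10:14160084-14160383, plus strand: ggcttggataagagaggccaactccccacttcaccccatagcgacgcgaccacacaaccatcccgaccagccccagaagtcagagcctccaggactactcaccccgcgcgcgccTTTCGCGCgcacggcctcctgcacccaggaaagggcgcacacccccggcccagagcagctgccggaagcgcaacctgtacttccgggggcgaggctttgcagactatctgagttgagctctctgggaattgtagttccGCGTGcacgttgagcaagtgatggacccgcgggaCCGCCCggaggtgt

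The glycosylases that act on oxidised guanine, the lesion for which the pathway is best known, or on the adenine paired with it gave no call. Ogg1, which removes 8-oxoguanine opposite cytosine, had 0.745 ± 0.014 after o-anisidine and 0.701 ± 0.119 in controls (mean log2 signal ± SD, n = 3 each), a log2 change of 0.04 (SE 0.08, adjusted p = 0.868). Mutyh, which removes adenine paired with 8-oxoguanine, had 0.64, 0.67 and 0.0027 on the o-anisidine arrays, against 0.22, 0.32 and -0.18 on the control arrays. The 2 high values, o-anisidine 1 and 2, were both on the slide that held no control array, and within the other slide the log2 change was -0.12, against 0.32 (SE 0.22, adjusted p = 0.625) over all arrays. A second Mutyh probe, dimmer, went the other way with -0.53 (SE 0.25). For Mutyh, then, neither the slide nor the choice of probe leaves a settled direction.

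None of the other glycosylases passed the threshold. Neil1, which acts on oxidised bases, had a log2 difference of -0.0029 (SE 0.09, adjusted p = 0.992). Mpg, the 3-methyladenine glycosylase, had -0.12 (SE 0.08, adjusted p = 0.623), and Tdg, the thymine glycosylase, had -0.04 (SE 0.13, adjusted p = 0.935). Smug1, a second uracil glycosylase, had 0.22 (SE 0.12, adjusted p = 0.550) on its brighter probe. Its other kept probe, well above background on 4 of 6 arrays, lay lower on every o-anisidine array with -0.49 (SE 0.17), so the 2 Smug1 probes disagree in sign. In all, 17 members had several kept probes, and 12 of them had the same sign on every one.

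The enzymes that follow the glycosylases all had 95% intervals within 1.5-fold. Apex1, the endonuclease that cuts at the emptied site, had the smallest p of these, with log2 signals of 4.81, 4.94 and 4.97 on the o-anisidine arrays, against 4.92, 4.87 and 4.77 on the control arrays. The ranges overlapped, and the log2 change was 0.05 (SE 0.08, adjusted p = 0.833). Parp1, the sensor of strand breaks, was the most tightly measured member (SE 0.07), with a change of -0.01 (adjusted p = 0.964) and a 95% interval of 0.889- to 1.11-fold. Polb, the gap-filling polymerase, had 0.05 (SE 0.08, adjusted p = 0.85) and Xrcc1, the scaffold of the ligation step, -0.04 (SE 0.11, adjusted p = 0.912). The median of these 4 genes was 0.02.

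In nucleotide excision repair 5 of 6 genes were measured, and the groups were separate for 1 of the 5. Ercc1, the partner of the nuclease that cuts on the 5' side of the damage, had log2 signals of 1.09, 1.13 and 1.099 on the o-anisidine arrays, against 0.94, 0.92 and 0.81 on the control arrays. All treated animals were above the highest control. The log2 change was 0.22 (SE 0.07, adjusted p = 0.360), or 1.16-fold, with a 95% interval of 0.043 to 0.39 on the log2 scale. A second probe, also with no overlap, gave 0.15 (SE 0.07), and the change within the shared slide was 0.21. Its window is shown because both Ercc1 probes separated the groups.
Ercc1 promoter, GRCr8 chr1:88124491-88124790, plus strand: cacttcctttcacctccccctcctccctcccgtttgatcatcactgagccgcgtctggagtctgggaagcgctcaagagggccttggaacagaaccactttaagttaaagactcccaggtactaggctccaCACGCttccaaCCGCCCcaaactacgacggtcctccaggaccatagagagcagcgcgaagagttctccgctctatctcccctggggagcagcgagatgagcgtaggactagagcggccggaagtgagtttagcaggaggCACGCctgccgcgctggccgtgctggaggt

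The other genes of the route lay slightly below 0. Ercc2 and Ercc3, the helicases of the factor TFIIH that open the strands, had log2 changes of -0.04 (SE 0.13, adjusted p = 0.932) and -0.10 (SE 0.10, adjusted p = 0.75). Xpa, which verifies the damage, had -0.03 (SE 0.07, adjusted p = 0.882). Ercc6, which couples repair to transcription, had -0.08 (SE 0.08, adjusted p = 0.727) on its brightest probe, and 0.08 and 0.28 on 2 dimmer ones. The median of the route was -0.04.

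Of the mismatch repair genes, 2 of 3 were measured. Pms2, a subunit of the endonuclease that nicks the new strand, had log2 signals of -0.41, -0.43 and -0.45 on the o-anisidine arrays, against -0.48, -0.57 and -0.70 on the control arrays. The groups did not overlap, by a gap of a few hundredths, and the log2 change was 0.15 (SE 0.08, adjusted p = 0.526). The other 2 kept Pms2 probes had overlapping groups, with changes of 0.12 (SE 0.29) and 0.16 (SE 0.15). Exo1, the exonuclease that removes the nicked strand, had overlapping groups and a change of 0.12 (SE 0.11, adjusted p = 0.701).

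Among the recombination and crosslink repair genes, the members differed in sign. Brca2, a mediator of strand exchange, Rad54l, which remodels the DNA during strand exchange, and Fancd2, which marks crosslinks for repair, had log2 changes of 0.17 (SE 0.17), 0.25 (SE 0.15) and 0.37 (SE 0.21), with adjusted p of 0.722, 0.570 and 0.544. Nbn and Mre11, subunits of the complex that binds broken ends, had -0.16 (SE 0.07, adjusted p = 0.448) and -0.13 (SE 0.10, adjusted p = 0.656). Nbn had the smallest p of the route, with log2 signals of 2.00, 2.06 and 2.13 on the o-anisidine arrays, against 2.22, 2.21 and 2.25 on the control arrays. Every treated value was under every control value. Within the shared slide Nbn had a change of -0.09.

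The 3 positive changes leaned on 1 control animal, control 3, which was singled out after the values were seen. Fancd2 had log2 signals of -4.25, -4.10 and -4.36 on the o-anisidine arrays, against -4.33, -4.43 and -5.07 on the control arrays. Rad54l had -2.43, -2.58 and -2.40 on the o-anisidine arrays, against -2.57, -2.55 and -3.03 on the control arrays. Brca2 had -1.87, -2.21 and -2.06 on the o-anisidine arrays, against -2.06, -2.06 and -2.55 on the control arrays. In each of these genes control 3 was far under the other control arrays, which lay among the treated ones or near them. Without control 3 the log2 changes were 0.14 for Fancd2, 0.09 for Rad54l and 0.01 for Brca2, and the route's median was 0.01, against 0.17 with it. Leaving out the lowest control array makes a positive change smaller by construction, so only the size of the drop is informative. Without control 1 the route's median was 0.26. Control 3 was also the lowest control array in the median shift of all tested members (-0.06) and of the mitosis list given below (-0.24). Whether these values are linked was not tested. Within the shared slide, which keeps control 3, the log2 changes were 0.25 for Fancd2, 0.31 for Rad54l and 0.16 for Brca2.

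The Brca1 probe had log2 signals of -8.02 to -7.93 on the o-anisidine arrays and of -8.29 to -8.18 on the control arrays, all under the lowest signal called well above background on any array, which lay between -6.19 and -5.80. No change can be read from it.

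The kinases that signal DNA damage included 1 member with separate groups. Chek2, activated by double-strand breaks, had log2 signals of -2.77, -2.92 and -2.93 on the o-anisidine arrays, against -3.23, -3.07 and -3.34 on the control arrays. Every treated animal was above every control, and the log2 change was 0.34 (SE 0.10, adjusted p = 0.310), or 1.27-fold with a 95% interval of 0.10 to 0.58 on the log2 scale. The other kept Chek2 probe did not share this, with overlapping groups and a change of 0.0027 (SE 0.10). Within the shared slide the first probe had a change of 0.29. Chek1, activated when replication stalls, had 0.17 (SE 0.19, adjusted p = 0.771), with -3.77, -4.36 and -4.00 on the o-anisidine arrays, against -4.32, -4.40 and -3.91 on the control arrays. Atm, the kinase upstream of Chek2, had -0.04 (SE 0.08, adjusted p = 0.871).

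End joining and translesion synthesis had no member with a p near the threshold. Xrcc6, the smaller Ku subunit that caps broken ends, had log2 signals of 2.45, 2.48 and 2.36 on the o-anisidine arrays, against 2.32, 2.32 and 2.31 on the control arrays. The lowest treated value was just above the highest control, and the log2 change was 0.11 (SE 0.07, adjusted p = 0.575), or 0.04 within the shared slide. A second kept Xrcc6 probe had overlapping groups and a change of 0.06 (SE 0.07). Its partner Xrcc5 had 0.0016 (SE 0.08, adjusted p = 0.996). Polh, the polymerase that copies past ultraviolet lesions, had -2.04, -2.22 and -2.04 on the o-anisidine arrays, against -1.90, -2.25 and -2.06 on the control arrays, with a change of -0.03 (SE 0.11, adjusted p = 0.930).

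Set side by side, the routes had medians between -0.04 and 0.17. Base excision stood at -0.0067 over 12 genes, nucleotide excision at -0.04 over 5, mismatch repair at 0.13 over 2 and recombination at 0.17 over 5. The checkpoint kinases had 0.17 over 3 genes and end joining 0.06 over 2. Within the shared slide 2 of these medians had the other sign, with nucleotide excision at 0.0577 and end joining at -0.0428. Taken on each array as the median over a route of the log2 signal minus the gene's control mean, recombination gave 0.29, 0.01 and 0.16 on o-anisidine arrays 1 to 3, against 0.14, 0.16 and -0.31 on the control arrays, so the groups overlapped. Those of base excision glycosylases were -0.07, 0.08 and -0.11 on the o-anisidine arrays, against -0.03, 0.11 and -0.05 on the control arrays. Mismatch repair, with 2 genes, was the only route of more than 1 gene whose o-anisidine medians (0.18, 0.13 and 0.09) all lay above those of the control arrays (0.06, -0.08 and 0.02). The differences between routes were not tested.

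**Figure D3:**
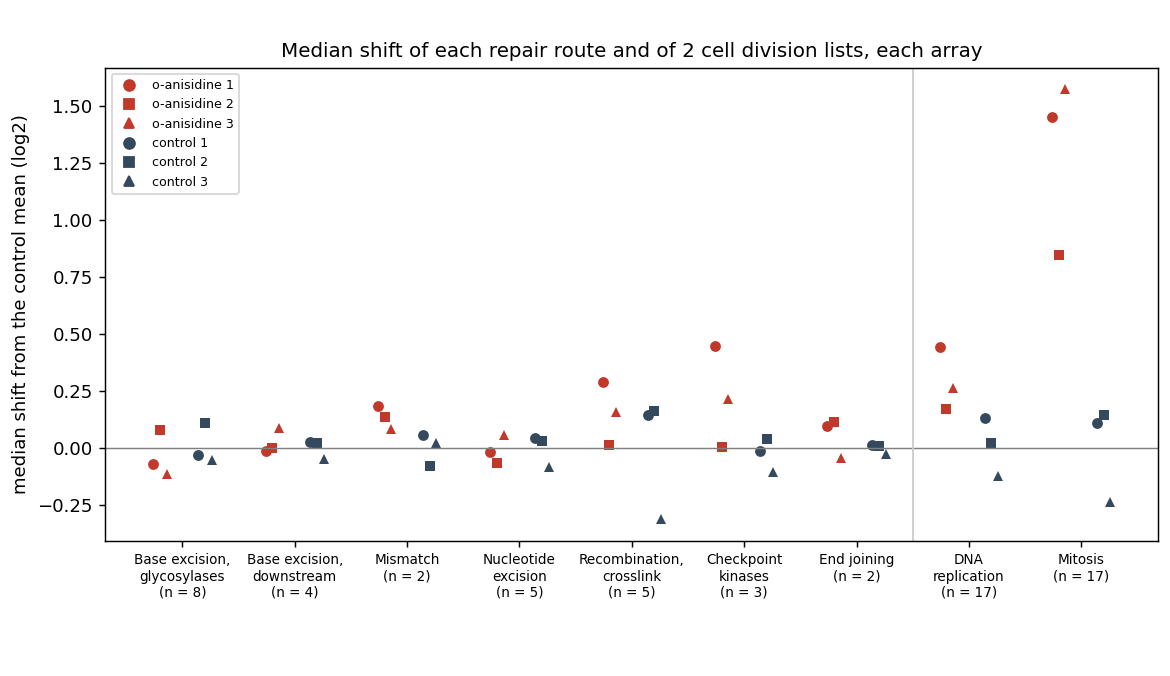
Median over the genes of each repair route, and of a DNA replication and a mitosis list, of the log2 shift from the control mean on each array, with o-anisidine in red left of control in dark blue. The repair routes lie between -0.31 and 0.44, while the mitosis list lies at 0.84 to 1.57 on the o-anisidine arrays.

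A wider list of 104 other repair genes was read from the same fit, and 73 were tested. None passed the threshold (limma, Benjamini-Hochberg), with 5 higher and 5 lower at an unadjusted p under 0.05, or 13.7%, against 11.5% of all genes. Of the 73, 27.4% had groups that did not overlap (8 higher and 12 lower), against 18.4% of all genes. Their median log2 change was 0.03. Of those reported here, 2 had separate groups and a change of at least 0.5 on the log2 scale, both higher after o-anisidine and both in the recombination and crosslink list, where 19 of 34 genes were tested with a median of 0.09.

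Ube2t, the ubiquitin-conjugating enzyme that modifies Fancd2, had log2 signals of -1.62, -2.18 and -1.07 on the o-anisidine arrays, against -2.81, -2.77 and -3.50 on the control arrays. The change was 1.40 (SE 0.33, adjusted p = 0.219), or 2.65-fold, and a second, dimmer probe gave 1.86 (SE 0.55). On that second probe control 3 was at -7.16, under the lowest signal called well above background on its array, -6.19. Eme1, a subunit of a nuclease that resolves joined DNA molecules, had -4.51, -4.93 and -4.73 on the o-anisidine arrays, against -5.65, -5.71 and -6.01 on the control arrays. Its change of 1.07 (SE 0.15, adjusted p = 0.101) had the smallest p of the wider list, with control signals close to the lowest that counted as well above background, and it was 0.46 with normexp background correction. Both genes were named because their groups were separate, so no contrast is drawn with Fancd2, whose groups overlapped. Bard1, the partner of Brca1 in a ubiquitin ligase, chosen after its values were seen, had a change of 0.41 (SE 0.08, adjusted p = 0.149) and 0.21 on its other probe.

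**Figure D4:**
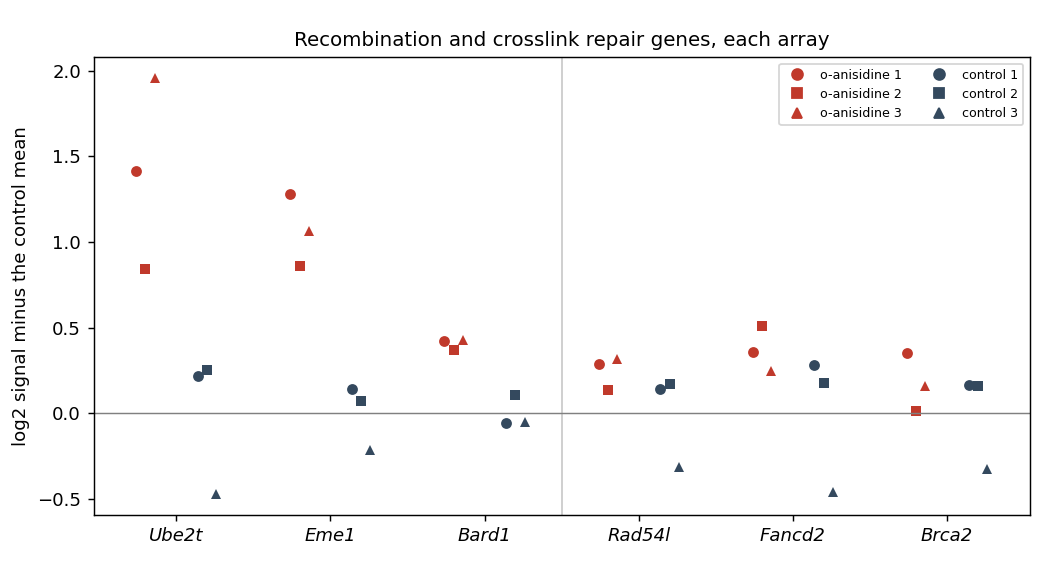
Log2 signal minus the control mean on each array for 3 genes of the wider recombination list (left of the line) and 3 members (right of it), with o-anisidine in red left of control in dark blue. Ube2t, Eme1 and Bard1, which were picked by their values, have separate groups. Rad54l, Fancd2 and Brca2 overlap, with control 3 lowest in each.

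Mitosis genes were higher on every o-anisidine array in the same comparison, with 0 of 17 past the adjusted threshold. At an unadjusted p under 0.05 (limma) all 17 were higher, against 6.36% of all genes. The summed signal of 17 measured mitosis genes, each as a ratio to the array's 75th percentile, was 16.9 to 23.4 on the o-anisidine arrays and 10.2 to 11.6 on the control arrays, and 17 of the 17 had separate groups, all higher. Their median shift was 1.45, 0.84 and 1.57 on o-anisidine arrays 1 to 3, against 0.11, 0.15 and -0.24 on the control arrays. DNA replication genes had a summed signal of 14.5 to 20.2 on the o-anisidine arrays and 10.5 to 14.0 on the control arrays. Of these, 5 of 17 were separate and higher and the rest overlapped, with a median log2 change of 0.24. Over all genes, 9.55% were separate and higher. The replication sum weighs bright genes most, among them Rrm2, which had the largest log2 change of the list, 1.41 (SE 0.38). The sum was not taken without Rrm2. The part of dividing cells in the values of the repair genes was not tested. In whole cortex, fewer cells of a type and less RNA per cell cannot be told apart.

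Other cell types were checked through markers. Over all genes, 9.55% had separate groups with higher values, 8.88% with lower ones, and 0.0611% passed the adjusted threshold. At an unadjusted p under 0.05 (limma), 6.36% were higher and 5.14% lower. The 8 proximal tubule markers, such as transporters of the brush border, had a summed signal of 1763 to 2071 on the o-anisidine arrays. On the control arrays it was 1805 to 1963, so the sums overlapped. Red blood cell markers had 1079.9 to 1299 on the o-anisidine arrays and 544 to 743 on the control arrays, with 8 of 8 measured separate and higher, 4 of them past the adjusted threshold. Lymphocyte markers had 1.98 to 2.68 on the o-anisidine arrays and 2.45 to 2.64 on the control arrays, with 0 of 7 separate and 6 changes below 0. Macrophage and neutrophil markers had 4.06 to 5.54 on the o-anisidine arrays and 3.76 to 4.81 on the control arrays, with overlapping sums. Of these, 3 of 6 were separate and higher (Cd14, S100a8 and S100a9). The other 3 (Cd68, Adgre1 and Csf1r) had overlapping groups and changes below 0, of -0.02, -0.34 and -0.27. Pvalb and Itgam were not well above background, and Slc12a1, Ms4a1 and Mpo had no matched probe. Collecting duct markers had 92.0 to 140.02 on the o-anisidine arrays and 152 to 176 on the control arrays, with a median log2 change of -0.28, 1 of 5 separate and lower, and 2 of 5 lower at an unadjusted p under 0.05 (limma). The sums of the groups did not overlap there, but a sum weighs bright genes most. Aqp2 was the brightest of the 5 and the one with separate groups, with a log2 change of -0.58 (SE 0.22). The sum was not taken without Aqp2. Slc4a1 went the other way, with 0.26 (SE 0.24) and overlapping groups. Podocyte markers had 24.7 to 33.1 on the o-anisidine arrays and 31.9 to 35.5 on the control arrays, with 5 of 5 changes below 0 and 1 of 5 separate. Endothelial markers had 32.7 to 36.0 on the o-anisidine arrays and 33.7 to 40.03 on the control arrays, and markers of the thick limb and distal tubule had 420.4 to 507 on the o-anisidine arrays and 403 to 485 on the control arrays, with overlapping sums. The part of these cells in the repair values was not tested.

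The promoter windows, from 250 bases before to 50 after the first start site listed by RefSeq on GRCr8, were available for 31 of the 37 members. In the 3 windows printed above, capitals mark matches on either strand to TTTCGCGC, TTTGGCGC or TTTCCCGC (E2F-like), TTTGAA (resembling the cell cycle element CHR), CCAAT (NF-Y), GCGTG (the core bound by the aryl hydrocarbon receptor) and GGGCGG (GC box), of which some overlap or abut. GCGTG occurred in 19 of the 31 members' windows (61.3%), against 31.1% of 27457 windows of all genes. GGGCGG occurred in 64.5% of the members' windows, against 34.9%, and CCAAT in 48.4%, against 37.7%. TTTCCCGC occurred in Msh6, Fancd2, Atm and Chek1, or 12.9%, against 1.03%, TTTGAA in 12.9%, against 18.1%, and TTTGGCGC in 0%, against 0.521%. The members' windows were richer in G and C, with a median of 59.7%, against 52.3%, and no allowance was made for that. Of the windows printed, those of Ung and Ercc1 each hold 2 copies of GCGTG, but the window of Xrcc6, not printed, holds more. The share of all windows with 2 copies was not counted. These matches are letters in a window and say nothing about binding.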

How the data were processed

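RNA of 6 rats was measured on 6 single-colour arrays, 3 after o-anisidine and 3 controls, grouped by sample title. Per the file headers, each deposited file holds the spot intensity of 1 array from Agilent Feature Extraction 10.7.1.1 (10.7 in the submitters' processing notes): a processed signal after background subtraction and detrending, unscaled between arrays, and median spot and local background signals. Flags in the deposited files mark, per the file headers, spots well above background, saturated or outlying. The design was annotated on rn4, per the file headers.

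On each array 41670 to 43630 of the 61657 probes cleared the background flag, and none was saturated. Arrays correlated at 0.992 to 0.994 within groups and 0.990 to 0.992 between them. All control arrays and o-anisidine 3 were on 1 slide, scanned on 1 day, and o-anisidine 1 and 2 on another, scanned on another day.

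The processed signal was scaled to the 75th percentile of its array and taken to log2. A probe was kept where it had no outlier flag (16 had one) and cleared the background flag on all 3 arrays of either group. Accessions were matched to RefSeq symbols of GRCr8 (27460 probes, 15284 symbols), and the brightest kept probe stood for each of 31087 genes, 12015 of which had one. limma 3.58.1 in R 4.3.3 (lmFit, eBayes, two-sided, no covariates, Benjamini-Hochberg over all genes, threshold 0.05) tested o-anisidine against control. The 95% intervals use limma's moderated SE with 4 residual and 2.105 prior degrees of freedom, and are not adjusted for the number of genes. The method was tested on simulated data. Alternatives covered background, scaling, filters, probe choice, variance model, slide and left-out arrays. Normexp used the median spot signal, since the files hold no mean signal as planned.

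Per-array values are given for members whose groups do not overlap and for the smallest p of each route. Values of Mutyh, Fancd2, Rad54l, Brca2 and Chek1 were added after they were seen. Of the wider list, genes with separate groups and a change of at least 0.5 are named, except 1 that is not reported here. The members and lists were chosen with earlier results of these data known.

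The series also has a table of intensity values scaled by the authors. By comparison, each of its columns equals the linear processed signal of 1 scanner file over its 75th percentile, uncentred, with column medians of 0.104 to 0.108, but of another replicate of the same group. Groups are unaffected, and replicate numbers here follow the scanner files.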

Additional observations from a re-analysis of the deposited data

How the results depend on the processing

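The number of repair genes past the threshold was 0 under each of 18 alternatives, and the number whose groups did not overlap was 6 to 8 under the 7 alternatives that rescale or refilter all 6 arrays. Over all genes, 68 were higher and 18 lower with normexp background correction, 91 and 29 with a variance trend and robust estimation, 2 and 1 with slide as a fixed block, and 1 and 1 on the slide with both groups. With no filter on dim probes 5 were higher, and with probes well above background on all arrays 5 were lower. Leaving out 1 array gave 2 to 16 higher and 1 to 5 lower. With slide as a block, or within the shared slide, the median of the downstream base excision genes was 0.0875, that of nucleotide excision 0.0577 and that of end joining -0.0428. The cause was not tested. The other route medians moved by less than 1 SD between arrays. Within that range, recombination ran from 0.01 (without control 3) to 0.26 (without control 1), and the checkpoint kinases from 0.03 (without o-anisidine 1) to 0.33 (without o-anisidine 2). Of 540 member values under alternatives, 24, in 15 members, moved by 1 SD or more. Samples with the same replicate number deviated together little (r = 0.020, 0.077 and 0.012), against -0.049 to 0.029 for the other pairs. These values cannot decide whether the numbers pair animals, and the main fit assumes no pairing. With the replicate number as a block, 1 gene was higher and 0 lower, and no member was called. Dim probes limit Brca1, Eme1 and the second probes of Smug1 and Ube2t.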

Other observations

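In the wider list, Aplf, which assists end joining at strand breaks, and Pms1, a mismatch repair protein, had separate groups with lower values after o-anisidine, and both were chosen after their values were seen. Aplf had a mean log2 signal of 0.754 ± 0.088 after o-anisidine and 1.099 ± 0.031 in controls (SD, n = 3 each, log2 change -0.35, SE 0.08, adjusted p = 0.192). Pms1 had -0.30, -0.35 and -0.40 on the o-anisidine arrays, against 0.14, -0.11 and 0.15 on the control arrays (log2 change -0.41, SE 0.09, adjusted p = 0.213). Both kept their sign under all 18 alternatives, with ranges of -0.42 to -0.30 for Aplf and -0.49 to -0.29 for Pms1, and neither passed the threshold under any of them. Ung, Nthl1, Pms2, Ercc1, Nbn, Chek2 and Xrcc6 also kept their sign under all 18 alternatives. The smallest adjusted p of the 7 was 0.134 (limma), for Ung with normexp background correction. For groups that do not overlap, the sign is fixed beforehand when an array is left out or only the shared slide is used. It is also fixed with slide or replicate number as a fixed block and with the other variance model. The kept signs of these 7 genes, Aplf and Pms1 are therefore no support under those alternatives.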
